A study of Mus musculus with 4 samples.

Results

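Macrophage and leukocyte marker genes were followed in RNA of sorted mouse muscle stem cells (satellite cells). The list held 32 genes, taken by symbol from a table of 24328 gene symbols, and all 32 were found there. None was chosen by its level in these libraries, but the list was drawn up with earlier results of the same data known. Polyadenylated RNA had been sequenced from 4 libraries in 2 groups. The 2 DEK libraries came from mice with the genotype Pax7CreERT2/+; H11DEK-EGFP/+ at 4.5 months of age. The 2 YFP libraries came from mice with the genotype Pax7CreERT2/+; ROSA26YFP/+ at 7 months of age. Mice of both groups carried the Pax7-driven CreERT2, a recombinase switched on by tamoxifen and targeted to satellite cells, and both were perfused with paraformaldehyde before the cells were sorted. The groups thus differed in the DEK transgene, age, reporter and transgene locus at once, and the parts of these in a difference cannot be told apart. The sort gate, the tamoxifen dosing and the number of animals per library are not given in the sources used here, and p-values measure only the spread between these libraries.

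The level of Dek matched the labels. It stood at 3196 and 1639.5 FPKM in DEK replicates 1 and 2, against 512 and 504 FPKM in YFP replicates 1 and 2. FPKM, a read level scaled by transcript length and library size, is the unit inferred for the table, and TPM cannot be told apart from it. Column totals lay between 541183 and 545123 FPKM; read depth is unknown, because the table gives no counts. The satellite cell markers matched the labelled cell type. Pax7, the transcription factor that defines these cells, was at 119 and 184 FPKM in DEK and at 106 and 93.9 FPKM in YFP. The 12 satellite cell markers summed to 3297 and 3822 FPKM in DEK and to 3374 and 3183 FPKM in YFP.

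Macrophages are the resident phagocytes of muscle, and monocytes and neutrophils enter it after injury. Their shared program rests on the transcription factor PU.1, encoded by Spi1. Macrophages and monocytes also rely on the receptor for macrophage colony stimulating factor, encoded by Csf1r. Many of their surface receptors have no signalling tail and work through the adaptors Tyrobp (DAP12) and Fcer1g, whose immunoreceptor motifs recruit the kinase Syk. Satellite cells are not leukocytes, and these genes are commonly read as markers of leukocytes. In such bulk RNA more cells of a type and more RNA per cell cannot be told apart.

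The list as a whole was higher in DEK. Of 32 members, 31 had both DEK values above both YFP values and 0 had both below, while Mpeg1 overlapped. Among all 24328 symbols, 24.8% had both DEK values above both YFP values, and among symbols above 0 in at least 1 library 32.9% did. The members summed to 278 and 440 FPKM in DEK replicates 1 and 2, against 12.1 and 92.9 FPKM in YFP replicates 1 and 2. These sums were 0.0510% and 0.0811% of the column totals in DEK and 0.00223% and 0.0172% in YFP. The order held for 32 members without DEK replicate 1 or without YFP replicate 2, and for 31 without either of the other libraries. Of all symbols it held for 35.1% without DEK replicate 1 and 32.2% without DEK replicate 2. The share was 34.6% without YFP replicate 1 and 30.7% without YFP replicate 2. The order held for 30 members after TMM scaling or with Rn45s removed, where Cd14 overlapped as well, beside 23.2% and 20% of all symbols. Rn45s, the ribosomal RNA precursor, took 5.15% and 5.55% of the total in DEK and 11.8% and 15.7% in YFP.

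**Figure D1:**
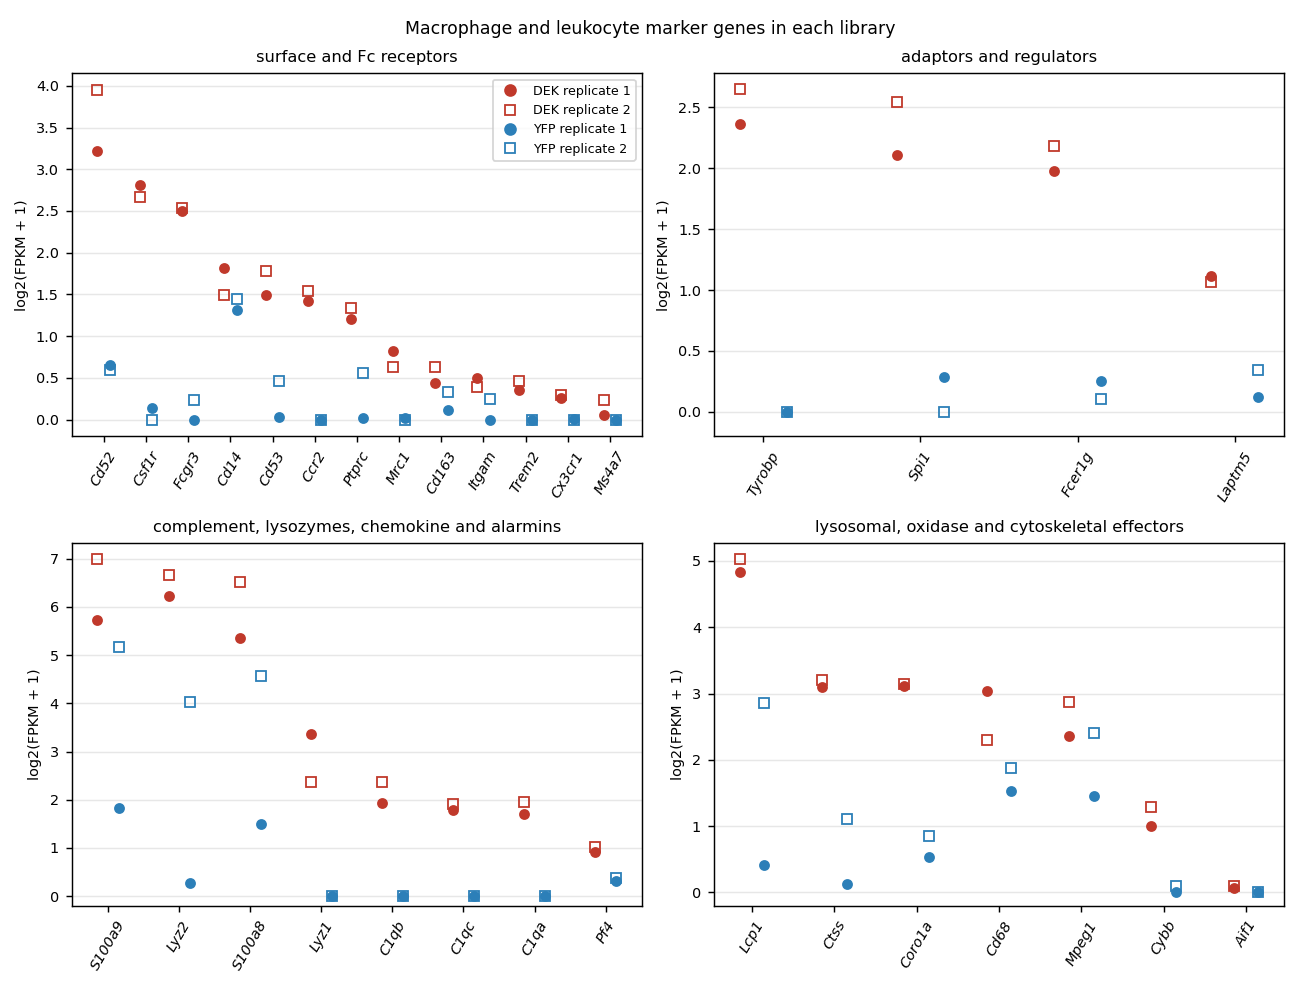
Level of each member in each library as log2(FPKM + 1), by role; filled circles are replicate 1 and open squares replicate 2, red for DEK and blue for YFP. The DEK points lie above the YFP points for 31 of 32 members, and Mpeg1 overlaps.

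Differences were tested with limma on log2(FPKM + 1) over the 12179 genes that reached 1 FPKM in 2 or more libraries, with Benjamini-Hochberg adjustment. This filter kept 23 members and left out 9. By limma 14 of the 23 rose in DEK at an adjusted p under 0.05 and 0 fell, with 21 higher and 0 lower at an unadjusted p under 0.05. Of all genes tested, 4.57% were called higher in DEK and 3.21% lower. After TMM scaling, quantile normalization and removal of Rn45s the higher calls were 548 of 1075, 471 of 1038 and 422 of 977, against 557 of 948 as reported. Over all genes tested the median log2 fold change became -0.07 with Rn45s removed, and 14 members were called there too. The median log2 fold change was 2.18 over the members tested and 0.05 over all genes tested. Part of this contrast was set by the filter: 15 of the 23 were under 1 FPKM in both YFP libraries and were tested only because both DEK values reached 1 FPKM. Of these 15 members 13 were called, beside 49.9% of the 363 genes that passed in that way. Of the other 8 members 1, Ctss, was called, beside 3.18% of the other genes tested. The calls depended on each library, and calls over all genes also became fewer with any 1 library left out. Without DEK replicate 1 limma called 0 of the 23 members (17 higher at an unadjusted p under 0.05) and 0 of all genes. It called 4 of the 23 when DEK replicate 2 was left out. Leaving out YFP replicate 1 gave 7 calls and leaving out YFP replicate 2 gave 6. With the filter applied to the 3 remaining libraries it called 0 of 8 without DEK replicate 1, with 5 at an unadjusted p under 0.05, and 1 of 8 without DEK replicate 2. It then called 10 of 23 without YFP replicate 1 and 7 of 23 without YFP replicate 2.

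**Figure D2:**
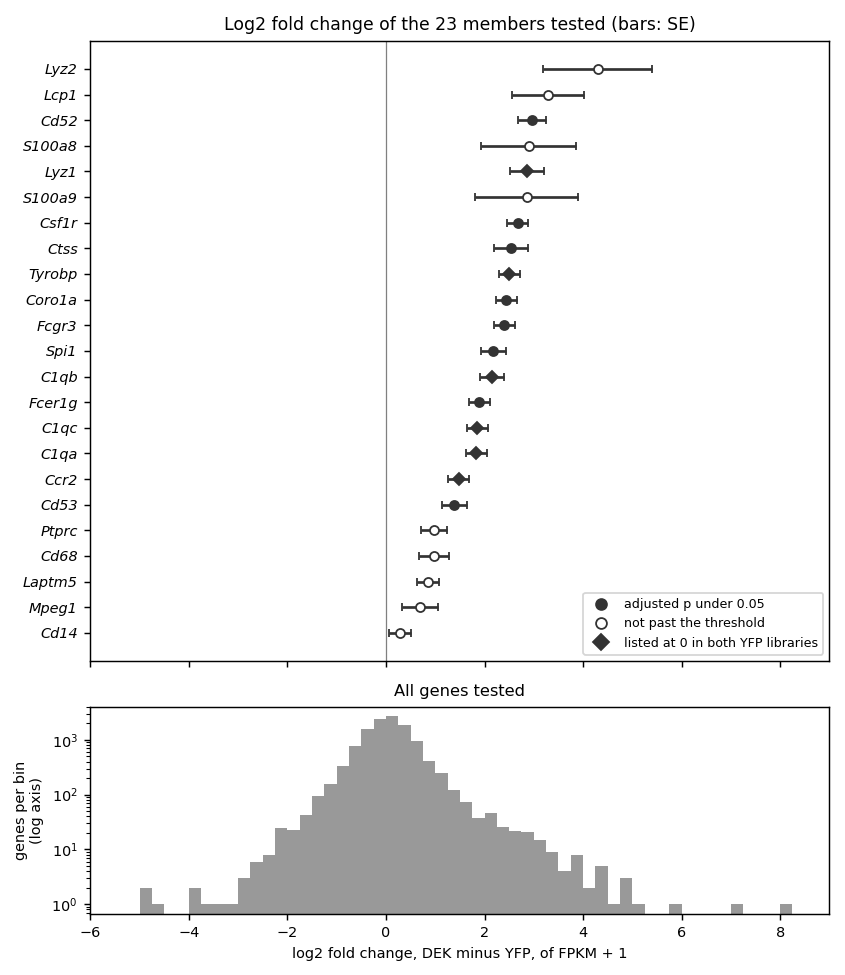
Top, log2 fold change of FPKM + 1 (DEK minus YFP) of the 23 members tested, with the SE as a bar; filled symbols passed an adjusted p under 0.05, and diamonds mark 6 genes listed at 0 in both YFP libraries, whose position depends on the added 1. Bottom, the same quantity for all 12179 genes tested, as genes per bin on a log axis; every member lies above 0, between 0.28 and 4.30.

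Among the surface receptors, 5 of 13 members rose by limma, 2 were tested without passing and 6 were not tested. Of the 7 tested, 6 were under 1 FPKM in both YFP libraries and were tested through DEK alone. Of all such genes 49.9% were called. Csf1r, the receptor that macrophages need for survival, was at 5.997 and 5.38 FPKM in DEK and at 0.0977 and 0 FPKM in YFP. Both DEK libraries were high and alike, and both YFP libraries were at or near 0. By limma the log2 fold change of Csf1r was 2.67 (SE 0.21, adjusted p = 0.00405), and the call was lost without DEK replicate 1 (adjusted p = 0.0798). In the GENCODE M21 annotation 17.9% of its exon bases lie over the end of Hmgxb3, on the opposite strand. Hmgxb3 was at 10.7 and 11.7 FPKM in DEK and at 12.6 and 11.7 FPKM in YFP (log2 fold change -0.11, limma adjusted p = 0.687).

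Fcgr3, a low-affinity receptor for immunoglobulin G, was at 4.66 and 4.80 FPKM in DEK and at 0 and 0.178 FPKM in YFP. Its DEK values were the closest together of the called receptors, and its log2 fold change by limma was 2.40 (SE 0.21, adjusted p = 0.00514). The call of Fcgr3 was lost without DEK replicate 1 (0.0907) and without DEK replicate 2 (0.0534). Its inhibitory relative Fcgr2b shares 5.78% of the 75-base stretches of Fcgr3 and was at 1.003 and 1.19 FPKM in DEK and at 0 in both YFP libraries. Reads from those stretches cannot be told apart. Cd52, a small anchored glycoprotein of lymphocytes and monocytes, was at 8.32 and 14.5 FPKM in DEK and at 0.575 and 0.506 FPKM in YFP. It had a log2 fold change of 2.96 (SE 0.28, limma adjusted p = 0.00669). With DEK replicate 1, YFP replicate 1 or YFP replicate 2 left out the call of Cd52 was lost (adjusted p = 0.0798, 0.0606 and 0.0756).

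Ccr2, the chemokine receptor that brings monocytes into tissue, was at 1.68 and 1.91 FPKM in DEK and listed at 0 in both YFP libraries (limma adjusted p = 0.0193). Cd53, a leukocyte tetraspanin, was at 1.81 and 2.45 FPKM in DEK and at 0.0262 and 0.382 FPKM in YFP, with a log2 fold change of 1.39 (SE 0.26, limma adjusted p = 0.0350). Neither call held with any 1 library left out. Ptprc, the pan-leukocyte phosphatase CD45, was lower in level. It stood at 1.30 and 1.53 FPKM in DEK, against 0.0105 and 0.474 FPKM in YFP, and did not pass (log2 fold change 0.98, limma adjusted p = 0.0765). Cd14, the co-receptor for bacterial lipopolysaccharide, was at 2.53 and 1.81 FPKM in DEK and at 1.49 and 1.72 FPKM in YFP. The groups of Cd14 nearly touched, and its log2 fold change of 0.28 did not pass (SE 0.22, limma adjusted p = 0.450).

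The 6 receptors that were not tested stayed under 1 FPKM in all 4 libraries. Mrc1, the mannose receptor of resident macrophages, was at 0.772 and 0.543 FPKM in DEK and at 0.0106 and 0 FPKM in YFP. Cd163, the haemoglobin scavenger receptor, was at 0.358 and 0.552 FPKM in DEK and at 0.0821 and 0.255 FPKM in YFP. Cx3cr1, the fractalkine receptor, was at 0.196 and 0.223 FPKM in DEK, against 0.00533 and 0 FPKM in YFP. For each of these the DEK values lay above the YFP values, at a level that the main filter left out. Trem2, which signals through Tyrobp, was at 0.284 and 0.376 FPKM in DEK and at 0 in both YFP libraries. Ms4a7 was at 0.0425 and 0.176 FPKM in DEK and at 0 in YFP. Itgam, an integrin chain of myeloid cells, was at 0.410 and 0.306 FPKM in DEK and at 0 and 0.190 FPKM in YFP. In GENCODE M21 70% of the exon bases of Itgam also belong to the gene model Gm49368 on the same strand, so reads of the pair could be split.

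Of the 4 adaptors and regulators 3 passed. All 4 were under 1 FPKM in both YFP libraries and were tested through DEK alone, where 49.9% of all such genes were called. Tyrobp was at 4.13 and 5.26 FPKM in DEK and listed at 0 in both YFP libraries (limma adjusted p = 0.00508). Fcer1g, the common chain of Fc receptors, was at 2.93 and 3.54 FPKM in DEK and at 0.193 and 0.0785 FPKM in YFP, with a log2 fold change of 1.90 (SE 0.22, limma adjusted p = 0.0106). Both adaptors thus stood at a few FPKM in DEK, near the receptors Fcgr3 and Csf1r in level; Csf1r is a kinase with a signalling tail of its own. Spi1 was at 3.30 and 4.82 FPKM in DEK and at 0.217 and 0 FPKM in YFP, with a log2 fold change of 2.18 by limma (SE 0.25, adjusted p = 0.0110). The Tyrobp call was lost on the same genes without DEK replicate 1 and without YFP replicate 2. The calls of Fcer1g and Spi1 were lost with any 1 library left out on the same genes. Laptm5, a lysosomal protein that tunes receptor signalling in leukocytes, was at 1.17 and 1.09 FPKM in DEK and at 0.0878 and 0.268 FPKM in YFP. Its groups were apart, but the log2 fold change of 0.86 did not pass (SE 0.22, limma adjusted p = 0.0700).

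All 3 chains of C1q, the complement component that macrophages secrete and that is assembled from C1qa, C1qb and C1qc together, were listed at 0 in both YFP libraries. C1qa was at 2.28 and 2.89 FPKM in DEK (limma adjusted p = 0.0120). C1qb was at 2.79 and 4.18 FPKM in DEK (limma adjusted p = 0.0105), and C1qc at 2.46 and 2.76 FPKM in DEK (limma adjusted p = 0.0105). The 3 genes lie on the same chromosome, and their mean levels in DEK were 2.58 ± 0.434, 3.49 ± 0.981 and 2.61 ± 0.215 FPKM (SD, n = 2 each). None of the 3 calls held with any 1 library left out on the same genes.

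Since PU.1 reads purine-rich sites with the core GGAA, the 250 bases before the start of each gene were searched on both strands for AGGAAGT, taken from the RefSeq table of build GRCm38.p6. This build is not the mm9 of the authors' files. Promoters were at hand for 26 of the 32 members, and 8 of these held a match, 30.8%, beside 8.80% of the 27025 symbols with a promoter. The shorter GAGGAA was in 14 of 26, 53.8%, beside 25.9% of symbols, and the longer GAGGAAGT in 3 of 26, 11.5%, beside 2.79%. The 3 words overlap one another, and a match is a run of letters, not a measured site. The promoters of C1qb (chr4:136886201-136886450, minus strand) and C1qc (chr4:136892915-136893164, minus strand) are shown because both genes stood at a few FPKM in DEK, against 0 in YFP, and both hold the word. Capitals mark ACTTCCT, which is AGGAAGT read on the other strand. Its first base lies 53 bases before the RefSeq start in C1qb and 195 bases before it in C1qc. The bases that follow this start were found near the start of a GENCODE M21 transcript for C1qc but not for C1qb, so the start of C1qb is uncertain.
C1qb: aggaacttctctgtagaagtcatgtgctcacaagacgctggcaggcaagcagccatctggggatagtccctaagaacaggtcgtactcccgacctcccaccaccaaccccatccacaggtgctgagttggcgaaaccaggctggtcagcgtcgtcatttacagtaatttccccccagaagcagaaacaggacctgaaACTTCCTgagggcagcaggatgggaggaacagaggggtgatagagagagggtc
C1qc: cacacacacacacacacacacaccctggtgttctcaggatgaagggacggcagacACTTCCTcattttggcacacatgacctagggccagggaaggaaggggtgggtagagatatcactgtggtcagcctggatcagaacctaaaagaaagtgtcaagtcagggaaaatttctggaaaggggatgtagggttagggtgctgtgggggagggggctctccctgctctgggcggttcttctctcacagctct

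The lysozymes are a pair of neighbouring genes on chromosome 10, of which Lyz2 is the form of macrophages and neutrophils and Lyz1 that of intestinal Paneth cells. Lyz2 had the highest level of any member in DEK replicate 1, at 73.4 FPKM, and stood at 100.1 FPKM in DEK replicate 2. In YFP it was at 0.200 FPKM in replicate 1 and at 15.2 FPKM in replicate 2. The DEK values lay above both YFP values, but the YFP libraries differed so much that the log2 fold change of 4.30 did not pass (SE 1.10, limma adjusted p = 0.0691). With a YFP library left out the call was made, at 2.42 (limma adjusted p = 0.0479) without YFP replicate 1 and at 6.18 (0.0204) without YFP replicate 2, where the lone YFP library is taken to vary like the others.

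Lyz1 was at 9.29 and 4.19 FPKM in DEK and listed at 0 in both YFP libraries (limma adjusted p = 0.0124). Here DEK replicate 1 was the higher library, in contrast to Lyz2. The copies share 74 stretches of 75 bases, 6.22% of those in Lyz1, and reads from these cannot be told apart, so the Lyz1 call is uncertain beside the higher level of Lyz2. With DEK replicate 1, YFP replicate 1 or YFP replicate 2 left out the adjusted p of Lyz1 was 0.0798, 0.0828 and 0.103 by limma, and with no low filter it was 0.0622. The 250 bases before the start were alike as well, with 200 identical bases in 252 aligned columns (79.4%). They are shown to let the copies be compared (Lyz1, chr10:117292869-117293118; Lyz2, chr10:117282273-117282522; both minus strand). Capitals mark the same word as above, which starts 100 bases before the start in both.
Lyz1: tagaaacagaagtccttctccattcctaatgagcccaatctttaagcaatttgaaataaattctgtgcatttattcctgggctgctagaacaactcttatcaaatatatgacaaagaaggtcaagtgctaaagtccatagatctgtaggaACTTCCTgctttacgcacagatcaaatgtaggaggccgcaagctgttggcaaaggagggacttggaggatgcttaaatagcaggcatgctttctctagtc
Lyz2: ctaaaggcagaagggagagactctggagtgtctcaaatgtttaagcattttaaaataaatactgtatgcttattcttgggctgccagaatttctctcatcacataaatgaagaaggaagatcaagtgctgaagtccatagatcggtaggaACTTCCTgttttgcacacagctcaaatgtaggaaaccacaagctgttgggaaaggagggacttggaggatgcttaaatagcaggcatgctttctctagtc

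The calcium-binding alarmins S100a8 and S100a9, which form a heterodimer that fills the cytoplasm of neutrophils, were the other abundant members. S100a8 was at 39.7 and 90.7 FPKM in DEK and at 1.81 and 22.8 FPKM in YFP. S100a9 was at 52.1 and 125.8 FPKM in DEK and at 2.54 and 35.2 FPKM in YFP. In both groups replicate 2 was the higher library, by 2.28 and 2.42 times in DEK and by 12.6 and 13.9 times in YFP for S100a8 and S100a9. Their log2 fold changes of 2.90 (SE 0.96) and 2.86 (SE 1.04) did not pass (limma adjusted p = 0.117 and 0.141). With the replicate number as a block both passed (limma adjusted p = 0.0326 and 0.0400), though the labels do not say that the numbers pair the libraries. The promoter of S100a8 (chr3:90668821-90669070, plus strand) held the longer word too, with ACTTCCT in capitals 172 bases before the start, and is shown as the match in a gene that did not pass.
S100a8: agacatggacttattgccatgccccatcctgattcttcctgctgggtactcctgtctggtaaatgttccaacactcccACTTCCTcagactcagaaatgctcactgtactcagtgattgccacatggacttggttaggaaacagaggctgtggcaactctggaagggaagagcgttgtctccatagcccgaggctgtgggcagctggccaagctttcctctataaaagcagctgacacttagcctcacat

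Of a list of 13 neutrophil markers 12 were in the table, and 5 of these had both DEK values above both YFP values. The share was 24.8% over all symbols and 32.9% over symbols above 0 in at least 1 library. Ngp, a granule protein, was at 8.60 and 54.7 FPKM in DEK and at 0.425 and 36.7 FPKM in YFP. Camp, the cathelicidin peptide, was at 6.65 and 48.2 FPKM in DEK and at 0.871 and 29.4 FPKM in YFP. For both genes YFP replicate 2 lay above DEK replicate 1, so the groups overlapped. The same order held for Lcn2 (2.07 and 5.96 FPKM in DEK, 0.0730 and 5.96 FPKM in YFP). It held for Ltf as well (0.437 and 3.11 FPKM in DEK, 0.0164 and 2.03 FPKM in YFP). Not every neutrophil gene was high in YFP replicate 2. Retnlg was at 0.886 and 2.58 FPKM in DEK and at 0 and 0.0365 FPKM in YFP. Mmp8 and Mmp9 were at 0 in both YFP libraries. The 12 markers summed to 22.7 and 127.6 FPKM in DEK and to 1.39 and 74.2 FPKM in YFP. By limma 1 of the 5 markers tested rose, the chemokine receptor Cxcr2, at 2.90 and 3.44 FPKM in DEK and at 0 in both YFP libraries (adjusted p = 0.00806). Mpo and Elane, made in neutrophil precursors, were at 0 in DEK replicate 1 and in both YFP libraries and at 2.50 and 2.99 FPKM in DEK replicate 2. The part of neutrophil RNA in the levels of S100a8, S100a9 and Lyz2 was not tested. Without these 3 genes the other 29 members summed to 112.7 and 123.7 FPKM in DEK and to 7.53 and 19.6 FPKM in YFP.

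**Figure D3:**
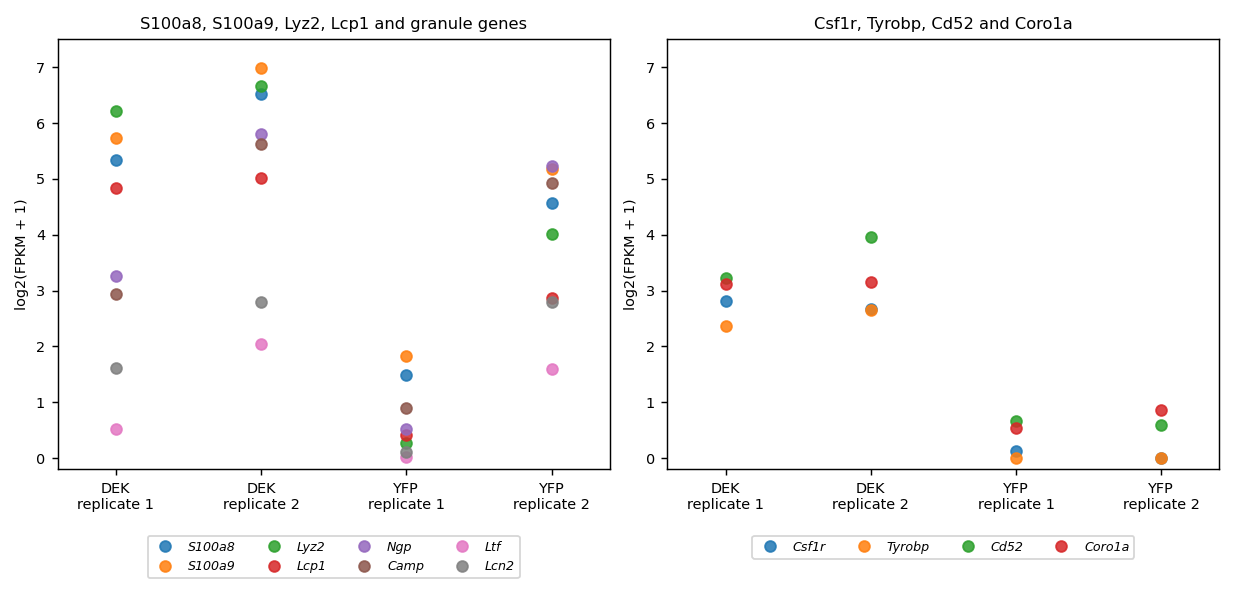
Level as log2(FPKM + 1) in each of the 4 libraries. Left, the members S100a8, S100a9, Lyz2 and Lcp1 with the neutrophil granule genes Ngp, Camp, Ltf and Lcn2, where YFP replicate 2 lies far above YFP replicate 1; right, the members Csf1r, Tyrobp, Cd52 and Coro1a, where both YFP libraries lie low and both DEK libraries high.

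The remaining secreted member, the platelet and macrophage chemokine Pf4, was at 0.873 and 1.01 FPKM in DEK and at 0.234 and 0.305 FPKM in YFP and was not tested. It reached 1 FPKM in 1 library.

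Among the intracellular effectors 2 of 7 members passed. Of the 5 tested, 1 (Coro1a) was tested through DEK alone. Ctss, the cathepsin that trims the invariant chain in antigen-presenting cells, was at 7.58 and 8.19 FPKM in DEK and at 0.0895 and 1.16 FPKM in YFP. By limma the log2 fold change of Ctss was 2.53 (SE 0.35, adjusted p = 0.0167). The call was lost with an added value of 0.1 (limma adjusted p = 0.0560) and with no low filter (0.0748). On the same genes it was also lost without DEK replicate 1 or 2, where the log2 fold change was 2.58 and 2.48. Coro1a, an actin regulator of leukocytes, was at 7.69 and 7.85 FPKM in DEK and at 0.448 and 0.811 FPKM in YFP. The DEK values of Coro1a were close together, with a log2 fold change of 2.44 by limma (SE 0.21, adjusted p = 0.00508). Without DEK replicate 1 or 2 the adjusted p of Coro1a was 0.0913 and 0.0644.

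Lcp1, the actin bundler L-plastin, was the fourth most abundant member, at 27.4 and 31.6 FPKM in DEK and at 0.336 and 6.27 FPKM in YFP. It followed the same order of YFP libraries as Lyz2, and its log2 fold change of 3.29 just missed the threshold (SE 0.73, limma adjusted p = 0.0505). It passed without YFP replicate 1 (2.07, limma adjusted p = 0.0479) and without YFP replicate 2 (4.51, 0.0204). Cd68, a lysosomal glycoprotein of phagocytes, was at 7.23 and 3.93 FPKM in DEK and at 1.88 and 2.66 FPKM in YFP, and its log2 fold change of 0.97 did not pass (SE 0.30, limma adjusted p = 0.102). Mpeg1, the pore-forming perforin-2, was at 4.12 and 6.35 FPKM in DEK and at 1.74 and 4.31 FPKM in YFP. YFP replicate 2 lay above DEK replicate 1 for Mpeg1 alone of the 32 members (log2 fold change 0.68, SE 0.36, limma adjusted p = 0.267). Cybb, the catalytic chain of the phagocyte oxidase, was at 0.999 and 1.45 FPKM in DEK and at 0 and 0.0725 FPKM in YFP, and missed the filter in DEK replicate 1. Aif1, the microglial marker Iba1, was at 0.0493 and 0.0656 FPKM in DEK and at 0 in both YFP libraries.

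Within a group the members did not vary alike. DEK replicate 2 was above DEK replicate 1 for 25 members and below it for 7, which were Csf1r, Cd14, Lyz1, Mrc1, Laptm5, Itgam and Cd68. The median ratio of replicate 2 to replicate 1 in DEK was 1.19 over the 32 members and 1.07 over all genes tested. In YFP, replicate 2 was above replicate 1 for 17 members, below it for 6 and tied at 0 for 9. Over the 16 members above 0 in both YFP libraries the median ratio was 3.08, beside 0.952 over all genes tested. DEK libraries had 0 members at 0, whereas 12 were at 0 in YFP replicate 1 and 13 in YFP replicate 2.

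Other genes of these cells, from lists that share no gene with the members, are given for comparison. Of 40 other macrophage genes 20 were tested, and by limma 9 rose and 1 fell. Of the 9 that rose 8 were at 0 in both YFP libraries and entered the test through DEK alone, as did the genes called at 49.9% above. The chemokine Ccl6 was at 7.54 and 9.26 FPKM in DEK and at 0 in both YFP libraries (limma adjusted p = 0.00336). The granulocyte colony stimulating factor receptor Csf3r was at 3.02 and 4.86 FPKM in DEK and at 0 in both YFP libraries (0.0105), and the cathepsin Ctsc at 1.86 and 2.41 FPKM in DEK and at 0 in both (0.0162). Gpnmb, a glycoprotein also made outside macrophages, was the gene that fell, at 15.98 and 19.8 FPKM in DEK and at 34.4 and 36.3 FPKM in YFP (limma adjusted p = 0.0305). Adgre1, an adhesion receptor widely used as a macrophage marker, was at 0.491 and 0.606 FPKM in DEK and at 0 in both YFP libraries and was not tested; it was chosen after its values were seen. Of all 40 genes 29 had both DEK values above both YFP values, beside 24.8% of all symbols, and 4 had both below. Besides Gpnmb, those below were Mertk, Lgmn and Sirpa, with log2 fold changes of -0.82, -0.55 and -0.48. These 3 did not pass (limma adjusted p = 0.0815, 0.105 and 0.117). The list had a median log2 fold change of 0.70 over the genes tested.

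In Fc receptor and immunoreceptor signalling genes 4 of 9 tested rose and 0 fell by limma, with 7 at an unadjusted p under 0.05. Through DEK alone 5 of these were tested, of which 3 rose, beside 49.9% of all such genes. The adaptor Blnk was by far the most abundant, at 431 and 429 FPKM in DEK and at 178 and 193 FPKM in YFP (log2 fold change 1.21, SE 0.13, adjusted p = 0.00958). Cd300lf, an inhibitory myeloid receptor, was at 1.56 and 1.45 FPKM in DEK and at 0 in both YFP libraries (adjusted p = 0.0248). The kinase Syk itself was at 0.328 and 0.418 FPKM in DEK and at 0 in YFP. In oxidase and integrin genes 2 of 10 tested rose by limma, among them the oxidase subunit Ncf1 (1.29 and 2.30 FPKM in DEK, 0 in both YFP libraries, adjusted p = 0.0322). The 2 that rose were among 5 genes tested through DEK alone.

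Of the transcription factors that work beside PU.1 in leukocytes, 7 were tested; by limma 0 rose and 1 fell, with 4 at an unadjusted p under 0.05. The repressor Bach2 fell, at 23.3 and 27.4 FPKM in DEK and at 40.3 and 50.3 FPKM in YFP (limma adjusted p = 0.0477). Runx1 was at 12.4 and 12.1 FPKM in DEK and at 19.1 and 18.5 FPKM in YFP (0.0718). Irf8, the partner of PU.1 in monocytes, was at 7.45 and 8.89 FPKM in DEK and at 5.83 and 3.12 FPKM in YFP (0.136).

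Genes of antigen presentation rose as well. In dendritic cell and MHC class II genes 6 of 8 tested rose and 0 fell by limma, with 7 at an unadjusted p under 0.05. The class II chain H2-Aa was at 23.2 and 24.9 FPKM in DEK and at 0.217 and 2.12 FPKM in YFP (log2 fold change 3.68, SE 0.43, adjusted p = 0.0111). H2-Eb1 was at 7.70 and 8.91 FPKM in DEK and at 0.434 and 1.07 FPKM in YFP (adjusted p = 0.00785), and H2-Ab1 at 51.7 and 43.4 FPKM in DEK and at 1.56 and 7.11 FPKM in YFP (0.0207). Of the 6 that rose 5 were among the 7 tested with a YFP value of 1 FPKM or more. Of all such genes 3.18% were called higher. The sixth, Cd209a, was at 1.99 and 1.16 FPKM in DEK and at 0 in both YFP libraries (adjusted p = 0.0361). The dendritic cell regulator Zbtb46 was at 1.99 and 2.02 FPKM in DEK and at 2.31 and 1.08 FPKM in YFP, so its groups overlapped. The receptor Flt3 was at 0.316 and 0.909 FPKM in DEK and at 0 in YFP, and was not tested. The dendritic cell genes Xcr1, Clec9a and Siglech stayed at 0.156 FPKM or less in every library and at 0 in YFP. In T, NK and B lymphocyte markers 0 of the 2 tested genes passed by limma, with 1 at an unadjusted p under 0.05. The 18 markers found summed to 11.98 and 14.3 FPKM in DEK and to 2.83 and 6.85 FPKM in YFP, and 10 had both DEK values above both YFP values. Of all symbols 24.8% did, and of symbols above 0 in at least 1 library 32.9% did. Of 8 mast cell markers 1 was tested, the histamine-forming enzyme Hdc, which was at 1.82 and 4.52 FPKM in DEK and at 0 and 0.188 FPKM in YFP (limma adjusted p = 0.0374).

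Markers of further cell types differed from list to list. Of all genes tested 4.57% were called higher and 3.21% lower, and of all symbols 24.8% had both DEK values above both YFP values. Of 17 endothelial markers tested 14 rose and 0 fell by limma, with 15 at an unadjusted p under 0.05. All 19 had both DEK values above both YFP values, and they summed to 356 and 289 FPKM in DEK and to 81.6 and 77.4 FPKM in YFP. Of the 14 that rose 12 were under 1 FPKM in both YFP libraries and were tested through DEK alone, again beside 49.9% of all such genes; of the other 5 tested 2 rose. Of all 19 markers 5 were at 0 in both YFP libraries, among them the vascular phosphatase Ptprb. Of these 5 markers 3 rose, and Robo4 and Erg were not tested. Erythroid markers summed to 39.4 and 357 FPKM in DEK and to 8.04 and 0.527 FPKM in YFP, with 2 of 5 tested higher by limma. Both were among 3 tested through DEK alone, beside 49.9% of all such genes called. Fibro-adipogenic progenitor markers summed to 1845 and 2003 FPKM in DEK and to 1865 and 1545 FPKM in YFP; 7 of 12 rose and 2 fell by limma. Pericyte and smooth muscle markers summed to 616 and 907 FPKM in DEK and to 740 and 760 FPKM in YFP; by limma 2 of 10 rose and 0 fell, and 4 had both DEK values above both YFP values and 4 both below. All 12 satellite cell markers were tested, and 0 rose and 0 fell by limma, with 5 at an unadjusted p under 0.05. Both DEK values lay above both YFP values for 6 of them and below for 2. The part of other cells in the levels of the 32 members was not tested.

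**Figure D4:**
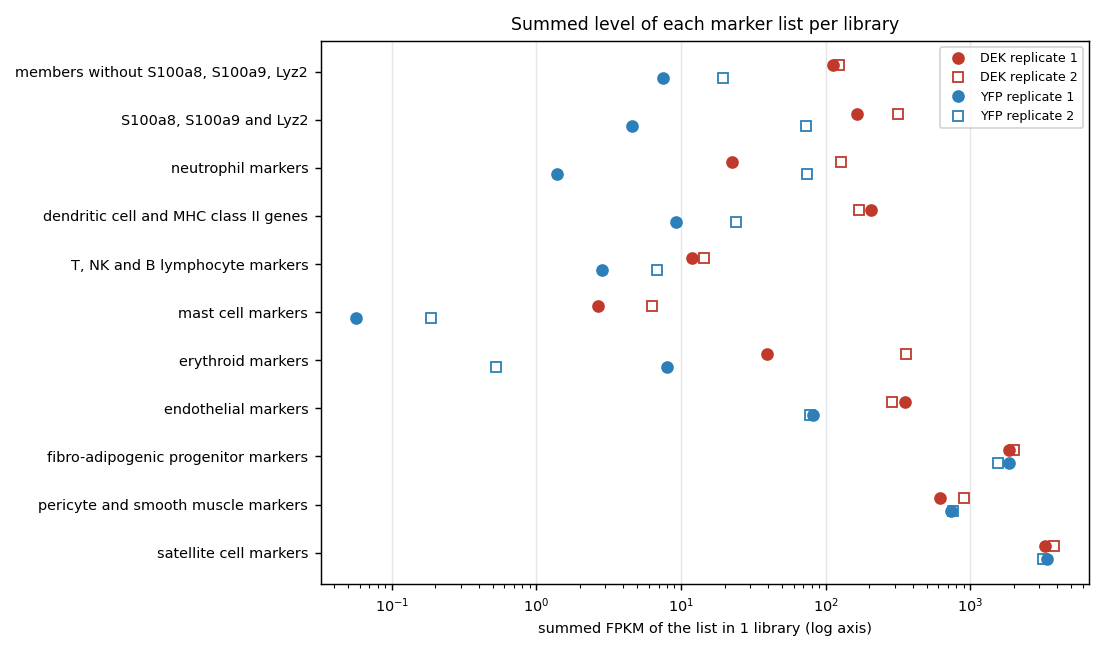
Summed FPKM of each marker list in each library, on a log axis; within each list the DEK points (red) are drawn on the upper row and the YFP points (blue) on the lower row, and the value is read along the axis alone; replicate 1 is filled and replicate 2 open. The 29 members other than S100a8, S100a9 and Lyz2 sum to 112.7 and 123.7 FPKM in DEK and to 7.53 and 19.6 FPKM in YFP. By contrast the sums of the satellite cell markers lie close together in all 4 libraries.

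The calls of the members depended unequally on the settings of the test. Csf1r was called higher in 16 of 17 settings in which it was tested, Coro1a in 15 of 17, and Fcgr3 and Tyrobp in 14 of 16 each. Cd14, Cd68 and Mpeg1 were called in 0 of 18 settings. S100a8 and S100a9 were called in 1 of 19 each, with the replicate number as a block. Every log2 fold change of a tested member was positive in every setting run.

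**Figure D5:**
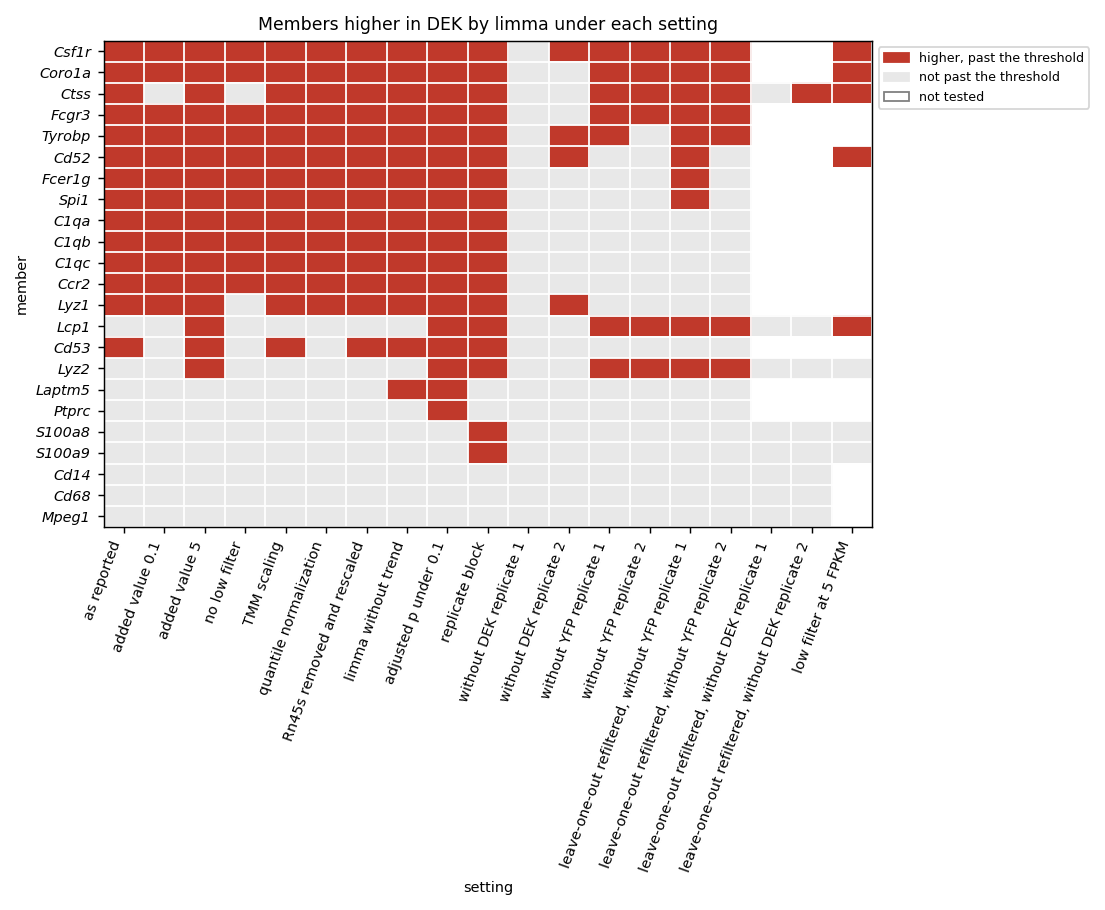
Each of the 23 members tested (lines) under each setting of the test (columns): red, higher in DEK past the threshold; grey, not past it; white, not tested. The column without DEK replicate 1 on the same genes holds 0 calls, and Cd14, Cd68 and Mpeg1 have none in any column.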

How the data were processed

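The authors worked on build mm9 with STAR (2.5.3a), StringTie (1.3.3) and R (3.4.1), per the submitters' processing notes. Their settings are not given in the sources used here. Per the labels' protocols, RNA of fixed, sorted cells was isolated by an FFPE method, amplified with a low-input template-switching kit and sequenced in pairs; strand use is not stated. Values in the deposited table, 1 per symbol and library, were read as FPKM made by the authors. That unit is inferred, and TPM cannot be told apart from it. All 4 value columns were used.

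DEK was compared with YFP in R 4.3.3 with limma 3.58.1 (two-sided, empirical Bayes with a variance trend, no covariates) on log2(FPKM + 1), over genes that reached 1 FPKM in 2 or more libraries. Adjustment was by Benjamini-Hochberg, with calls made under 0.05. A fold change on this scale understates low genes. It is not given for a gene listed at 0 in both YFP libraries, although list medians include such genes, 6 of the members tested. With 2 against 2 libraries the smallest exact permutation p is 0.333, so none was run.

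The members, lists, rule for named genes (all members, Dek, Rn45s and up to 3 genes with the smallest p per further list) and tests were chosen with earlier results of these data known. Other genes named were chosen after their values were seen. Some genes that the rule names are not reported here. Alternatives were 0.1 or 5 as the added value, a low filter at 5 FPKM in 2 libraries or none (genes above 0), TMM scaling (trims of 30 and 5%), quantile normalization, removal of Rn45s, no variance trend, an adjusted p under 0.1, the replicate number as a block, and each library left out, on the same genes or with the filter applied to the 3 that remain. Promoters came from RefSeq (GRCm38.p6); exon overlaps and shared stretches of 75 bases came from GENCODE M21.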

Additional observations from a re-analysis of the deposited data

How the results depend on the processing

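The 14 members called higher stayed within 1.5 times of that number in 9 of the 10 settings that kept all libraries, among them TMM scaling and removal of Rn45s (14 each). The members called numbered 5 of 8 tested at 5 FPKM, and between 0 and 10 with 1 library left out. All genes called numbered 293 with no low filter, 2096 at an adjusted p under 0.1, 618 with the replicate block and between 0 and 780 with 1 library left out, against 948. The median member log2 fold change of 2.18 was 4.11 with an added value of 0.1, 0.82 with 5, 1.66 over all 32 members with no low filter, 2.88 over 8 at 5 FPKM, and 1.96 to 2.98 with 1 library left out. An added value moves low genes most and a stricter filter tests fewer members; the cause of the other shifts was not tested. The labels do not say whether libraries with the same number share more than that number. Their deviations from the group means had r = 0.0635 across all genes tested, a value that cannot decide this for single genes. With the replicate block 18 members were called, the 14 with Lyz2, Lcp1, S100a8 and S100a9. Single members kept their side of the threshold in 284 comparisons with an alternative, lost it in 65 and gained it in 20, and 0 changed sign. The order of the groups, with settings chosen after the data were seen, held for 30 to 32 members. Of all symbols it held for 20% to 35.1% in these settings. Read depth is unknown, so no detection limit can be set for values near 0.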
